A study of Mus musculus with 8 samples.

Results

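Guanylate-binding proteins (GBPs) are large interferon-induced GTPases of innate immunity. In macrophages they assemble on the vacuoles and membranes around intracellular bacteria and protozoa, where they help to break the vacuole, recruit immunity-related GTPases and expose ligands to the inflammasome. Their genes are classic targets of interferon-gamma (IFN-gamma), which acts through JAK kinases and, further down, the transcription factor IRF1. The data described here cover 9 mouse GBP genes, Gbp2, Gbp2b, Gbp3, Gbp4, Gbp5, Gbp6, Gbp7, Gbp8 and Gbp9, out of 18125 genes listed in the tables. They were taken by symbol and Entrez identifier.

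RNA from 8 cultures of mouse macrophages was sequenced, with 1 library for each group. Peritoneal macrophages (PM) came from C57BL/6 mice given 1 mL of 4% thioglycollate, an irritant that draws macrophages into the peritoneum, 3 to 4 days earlier. The mice were wild-type (WT) or Slc6a8-/y (KO), and their PM were untreated or exposed to IFN-gamma (10 ng/mL, 12 hours). From both genotypes, macrophages were also grown out of bone marrow (BMDM) with 10% M-CSF over 5 days and were untreated or exposed to IL-4 (10 ng/mL, 6 hours). Slc6a8, on the X chromosome, encodes the creatine transporter. The series asked how macrophages that lack creatine change their transcriptome during polarization. The age of the mice, the kind of deletion and whether libraries of 1 genotype share an animal are not given in the sources used here.

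Slc6a8 was at 163.54 and 39.52 FPKM in the untreated and IFN-gamma-treated WT PM and at 0.73 and 0.18 FPKM in the KO PM. In BMDM it was at 97.34 (untreated) and 87.92 FPKM (IL-4) in WT and at 1.71 and 1.15 FPKM (KO). FPKM counts fragments per length of transcript and per depth of library, so that levels of different genes can be set side by side. All 6 macrophage markers were present in every library, with summed levels of 6033.79 to 13873.22 FPKM. Of 7 T and NK cell markers the 3 that matched, Cd3e, Cd2 and Klrb1c, summed to 0.07 to 0.92 FPKM. The others, Cd3g, Ncr1, Nkg7 and Ifng, the gene of IFN-gamma itself, matched no gene listed in any library. B cell markers (4 of 5 matched, without Ighm) summed to 0.82 to 5.67 FPKM, neutrophil markers to 5.55 to 11.01 FPKM and endothelial markers to 1.64 to 14.81 FPKM. The summed level of 5 fibroblast and mesothelial markers was 47.28 to 88.94 FPKM in PM. In BMDM it was 369.50 (untreated) and 348.31 FPKM (IL-4) in WT and 195.65 and 168.39 FPKM (KO), with Msln and Upk3b at 0 in all 4, so that this list was lower in both KO libraries. Total expected counts were 10812678 to 11065427 per PM library and 20553654 to 21221526 per BMDM library. With 1 library a group, differences between single libraries have no replicate check, and in bulk RNA fewer cells of a type and less RNA per cell cannot be told apart.

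The 9 genes lie in 2 clusters and all are annotated as protein-coding. In the GRCm38.p6 annotation (mm10), Gbp5, Gbp7, Gbp3, Gbp2b and Gbp2 follow each other on chromosome 3, from the start of Gbp5 at base 142496934 to the end of Gbp2 at base 142638008. Gbp8, Gbp9, Gbp4 and Gbp6 lie on chromosome 5 from base 105012513 to base 105295871. RefSeq promoter windows (250 bases before to 50 after a start, GRCm38.p6) were at hand for 5 members, those of chromosome 3, with 2 windows for Gbp3. They were searched on both strands for the core of the interferon-stimulated response element (ISRE), written GAAANNGAAA or in reverse TTTCNNTTTC, to which factors of the IRF family bind, and for the gamma-activated site (GAS), TTCNNNGAA, an element of IFN-gamma target genes.

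The parts of these windows that hold the matches are shown because all 9 genes answered IFN-gamma. Capitals mark ISRE cores and GAS matches, and all are read 5′ to 3′ on the plus strand, which is the strand of the 5 genes. Gbp5 is chr3:142496684-142496905, Gbp7 is chr3:142530215-142530307, Gbp3 is chr3:142559984-142560029, Gbp2b is chr3:142594695-142594734 and Gbp2 is chr3:142620589-142620628.
Gbp5: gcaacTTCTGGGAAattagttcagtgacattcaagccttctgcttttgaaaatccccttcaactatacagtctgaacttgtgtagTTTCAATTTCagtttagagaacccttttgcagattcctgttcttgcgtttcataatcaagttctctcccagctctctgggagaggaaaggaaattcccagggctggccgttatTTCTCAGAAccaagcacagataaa
Gbp7: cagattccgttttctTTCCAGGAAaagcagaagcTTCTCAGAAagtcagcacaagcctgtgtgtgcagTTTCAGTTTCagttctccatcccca
Gbp3: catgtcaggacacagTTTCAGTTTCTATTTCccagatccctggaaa
Gbp2b: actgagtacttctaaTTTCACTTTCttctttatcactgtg
Gbp2: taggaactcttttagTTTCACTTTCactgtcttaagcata

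An ISRE core was found in 5 of the 6 windows, at least 1 for each of the 5 genes, and every match reads TTTC first, that is, on the minus strand. Gbp2 and Gbp2b carry the same 10 letters, at bases -59 to -50 and -137 to -128 from the start. Gbp3 has 2 overlapping matches at -45 to -36 and -39 to -30, and its second window has none. Gbp5 has its ISRE core at -165 to -156 and Gbp7 at -53 to -44. GAS matches occurred in Gbp5 (-245 to -237 and -52 to -44) and in Gbp7 (-106 to -98 and -87 to -79). Of 32851 promoter windows in the RefSeq table, 3.44% held an ISRE core, 8.30% a GAS match and 0.45% both. These are matches of letters, and binding was not measured.

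**Figure D1:**
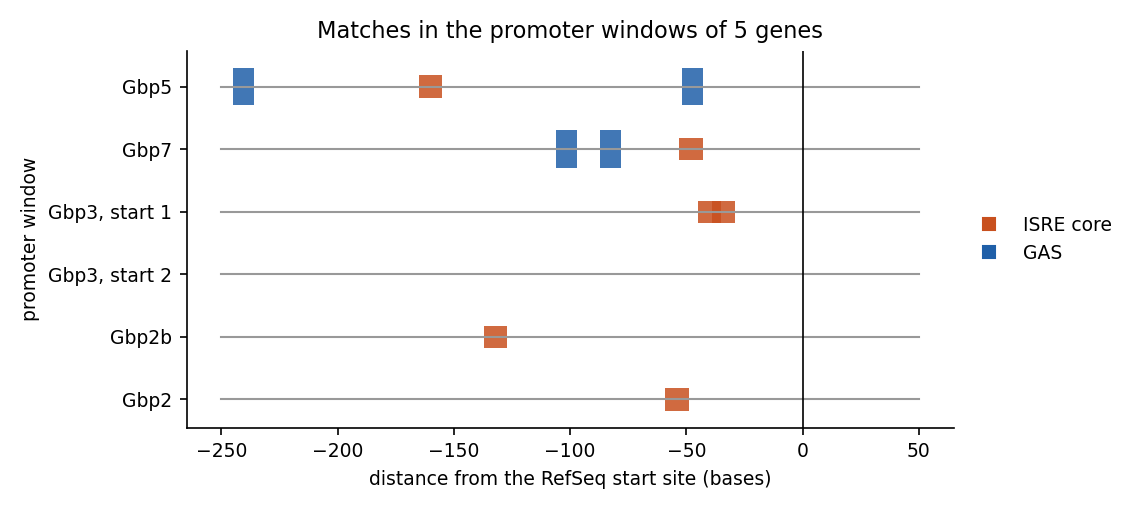
Positions of ISRE core (orange) and GAS (blue) matches in the 6 RefSeq promoter windows of 5 GBP genes, in bases from the start site (0). ISRE cores lie between -165 and -30 in 5 windows, and only the windows of Gbp5 and Gbp7 also hold GAS matches, 2 each.

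Without IFN-gamma the family was at a low level in PM, and Gbp2 and Gbp5 were its main members. Gbp2, which gathers on Toxoplasma vacuoles, was at 6.53 (WT) and 13.00 FPKM (KO). Gbp5, described as a promoter of inflammasome assembly, was at 5.89 and 6.37 FPKM. The next, Gbp3, was at 1.81 and 2.69 FPKM, and Gbp7, Gbp9, Gbp6, Gbp4 and Gbp8 were between 0.10 and 1.03 FPKM. Gbp2b, the gene long called Gbp1 in mice, had no counts in either. Gbp8 rested on 2.58 and 2.80 expected counts in these libraries and Gbp4 on 5.90 and 15.19, so that their untreated levels are poorly determined.

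IFN-gamma raised all 9 genes in both genotypes, and Gbp2 became one of the most abundant RNAs of the cell. Gbp2 stood at 3400.10 (WT) and 3428.48 FPKM (KO) after IFN-gamma, which put it at rank 12 and 13 among the genes listed in these libraries, from rank 6583 and 4545 without IFN-gamma. Gbp5 followed with 276.23 (WT) and 368.41 FPKM (KO). Gbp3 reached 172.23 and 251.06 FPKM, Gbp6 190.38 and 200.97 FPKM, and Gbp4 120.52 and 145.97 FPKM. Gbp7 reached 72.64 and 81.97 FPKM and Gbp9 48.11 and 50.65 FPKM. Gbp8 came to 27.27 (WT) and 9.40 FPKM (KO), and Gbp2b to 4.99 and 2.73 FPKM. Each gene was higher in both IFN-gamma libraries than in both untreated ones, with no overlap, as were 25.5% of all genes tested. The spread of levels within the family is wide: in WT, Gbp2 at the top was at 3400.10 FPKM and Gbp2b at the bottom at 4.99 FPKM, although both genes are neighbours.

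**Figure D2:**
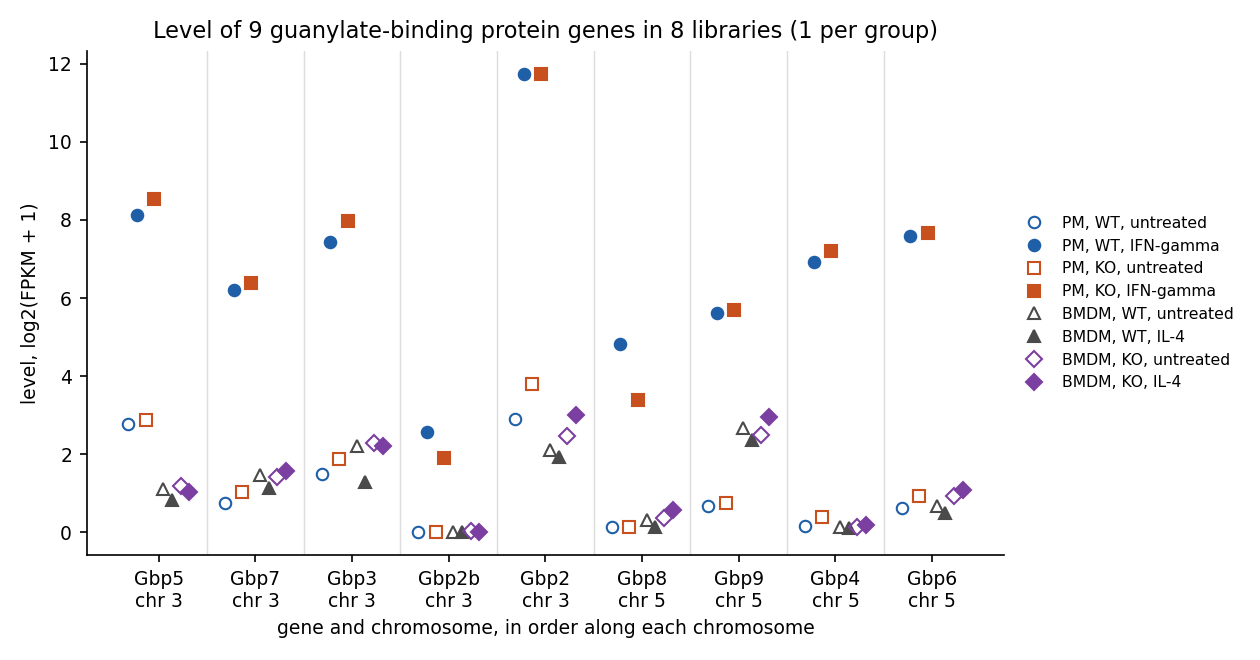
Level of each GBP gene, as log2(FPKM + 1), in the 8 libraries, with genes in their order along chromosomes 3 and 5. Filled blue and orange points, PM with IFN-gamma, lie above all other points of the same gene, and Gbp2 is the highest of the 9 in both.

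The additive edgeR fit of the 4 PM libraries, with 1 term each for genotype and IFN-gamma, called all 9 genes higher with IFN-gamma at a Benjamini-Hochberg adjusted p under 0.05. Over all 12052 genes tested, 17.2% were called higher. The fitted log2 change was 8.61 (SE 0.27, adjusted p = 2.24e-05, edgeR) for Gbp2 and 9.38 (SE 0.21) for Gbp4, which started from a very low level. It was 8.16 (SE 0.18) for Gbp6, 7.35 (SE 0.27) for Gbp8, 6.66 (SE 0.13) for Gbp3, 6.61 (SE 0.15) for Gbp7 and 6.33 (SE 0.14) for Gbp9. Gbp5, the member with the highest untreated level after Gbp2, had the smallest change of the 9, 5.80 (SE 0.14, adjusted p = 8.85e-06, edgeR). The value for Gbp2b, which had no untreated counts, depends on the prior count of the fit. Against a floor of 3 counts in the untreated library, Gbp2b was at least 50.9-fold higher in WT and at least 28.2-fold higher in KO. DESeq2 called 8 of the 9 higher, with 1272 of the 12052 genes called higher, and left out Gbp2b (adjusted p = 0.0941).

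On the scale of log2(FPKM + 1), which understates the change of low genes, the median response of the 9 genes was 5.46 in WT and 5.65 in KO, against -0.05 and -0.11 over the 10670 genes that averaged 1 FPKM or more. All 9 were at least 2-fold higher in WT, where 5.94% of genes were, and all 9 in KO, where 7.27% were. Gbp2b, Gbp4, Gbp6, Gbp8 and Gbp9 were under 1 FPKM in both untreated libraries, and Gbp7 in that of WT. These genes met the limit of 1 FPKM through their IFN-gamma levels, so that for them this count was partly fixed in advance. In ratios of count shares, Gbp2 was 520 times its untreated share in WT (95% counting interval 449 to 607) and 264 times in KO (238 to 294). The level after IFN-gamma was nearly the same in both genotypes, and the untreated level was higher in KO. Gbp8 was 282 times its untreated share in WT (82.6 to 1180) and 90.4 times in KO (28.5 to 412), with intervals that overlap. Gbp5 was at 46.9 times (40.7 to 54.5) in WT and 57.9 times (50.6 to 66.7) in KO. Clopper-Pearson intervals of this kind cover counting error only, and PCR copies of 1 fragment count more than once in them.

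**Figure D3:**
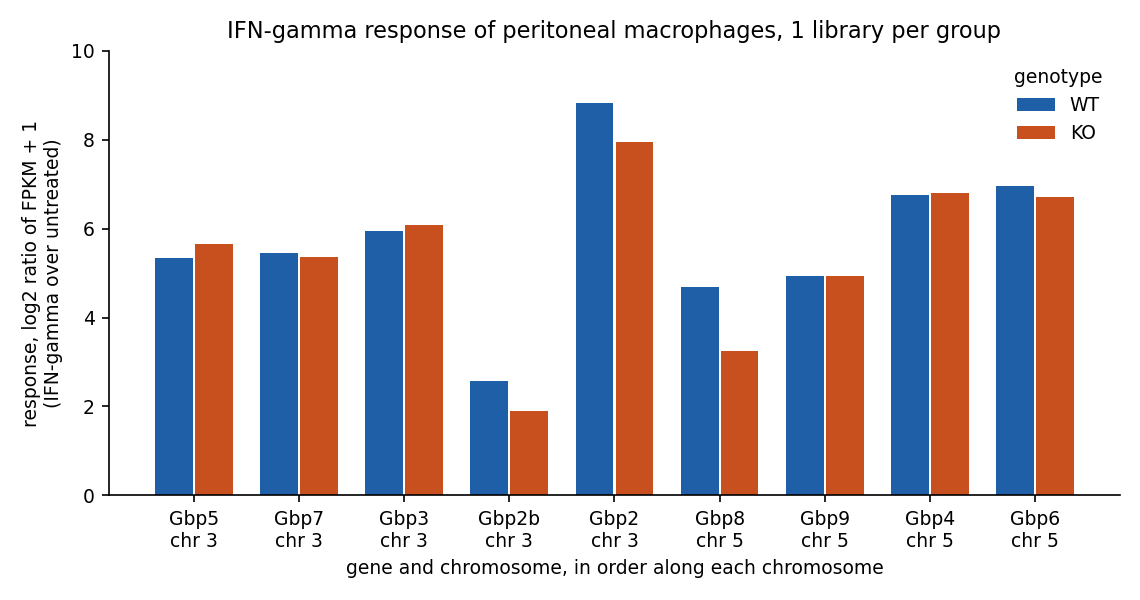
IFN-gamma response of each GBP gene in PM, as the log2 ratio of FPKM + 1 between the treated and the untreated library, in WT (blue) and KO (orange). Every bar is above 0, from 1.90 for Gbp2b in KO to 8.82 for Gbp2 in WT, and the widest gap between genotypes is that of Gbp8, 4.68 in WT and 3.24 in KO.

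The make-up of the family changed with the stimulus. In untreated PM the 9 genes summed to 16.27 (WT) and 25.11 FPKM (KO), or 0.00479% and 0.00726% of all counts of the library (Wilson 95% intervals 0.0044% to 0.00522% and 0.00677% to 0.00778%). With IFN-gamma they summed to 4312.47 and 4539.64 FPKM and took 1.18% and 1.25% of all counts. Gbp2 held 40.1% of the family's summed FPKM in untreated WT and 78.8% with IFN-gamma. In KO its share went from 51.8% to 75.5%. The share of Gbp5 went from 36.2% to 6.41% in WT and from 25.4% to 8.12% in KO. In BMDM, by contrast, Gbp9 held the largest share in 3 libraries, 33.1% (WT, untreated), 38.2% (WT, IL-4) and 26.9% (KO, untreated), and Gbp2 in the KO library with IL-4, 31.7% against 30.5% for Gbp9. The BMDM family sum was 10.98 to 22.27 FPKM.

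**Figure D4:**
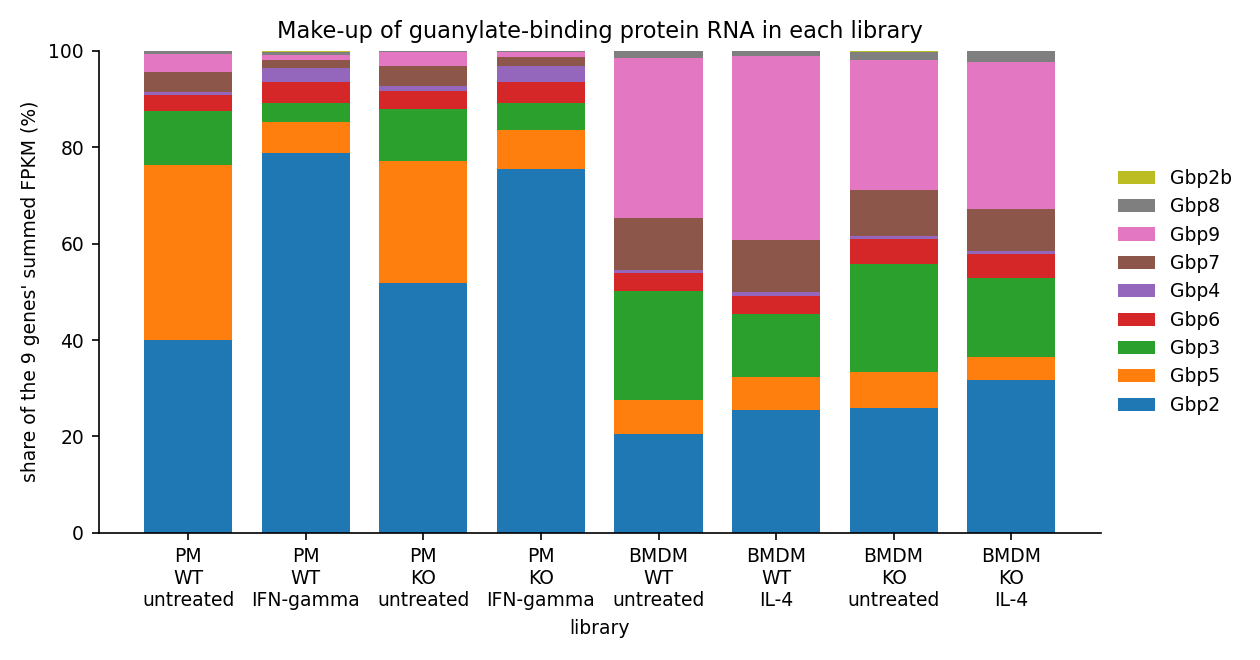
Share of each GBP gene in the summed FPKM of the 9 genes, in percent, for each of the 8 libraries. Gbp2 (blue) makes up 78.8% and 75.5% in the IFN-gamma libraries, and Gbp9 (pink) 26.9% to 38.2% in BMDM but 1.12% to 3.69% in PM.

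Untreated PM and BMDM held the same family with other members in front. The family sum was similar in WT, 16.27 FPKM in PM and 16.20 FPKM in BMDM. In KO it was higher in PM, 25.11 against 17.38 FPKM. Gbp9 was at 0.60 (WT) and 0.69 FPKM (KO) in untreated PM and at 5.36 and 4.68 FPKM in untreated BMDM. Gbp5 went the other way, with 5.89 and 6.37 FPKM in PM and 1.15 and 1.29 FPKM in BMDM. Gbp3 was at 3.65 and 3.89 FPKM and Gbp7 at 1.76 and 1.66 FPKM in untreated BMDM, above their levels in PM. The order of levels in untreated WT BMDM was Gbp9, Gbp3, Gbp2, Gbp7, Gbp5, Gbp6, Gbp8, Gbp4 and Gbp2b, and neighbours such as Gbp3 (3.65 FPKM) and Gbp2 (3.32 FPKM) are close. Cell type, culture and any difference in processing cannot be told apart here, and no test was made between the cell types' levels.

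After IFN-gamma, Gbp8 was the 1 GBP gene that differed at least 2-fold between KO and WT PM. Of the others, 7 genes had a KO over WT log2 ratio above 0, from 0.01 for Gbp2 to 0.54 for Gbp3, and none of these was 2-fold higher, where 1.56% of genes were. Gbp8 was lower in KO, 9.40 against 27.27 FPKM, a ratio of count shares of 0.344 (counting interval 0.297 to 0.397) on 254.23 and 743.54 expected counts. It was the only one at least 2-fold lower, a share of 0.89% over all genes. Gbp2b had a ratio of 0.546 (0.416 to 0.719), on 84.82 and 156.37 counts. Gbp9 and Gbp4, the next genes after Gbp8 on chromosome 5, had ratios of 1.05 (0.988 to 1.12) and 1.21 (1.17 to 1.25). In sequence, 21.2% of the 50-base stretches of the Gbp8 transcript also occur in other listed genes. The share is 10.5% with Gbp11, 9.4% with Gbp4 and 8.2% with Gbp10. Gbp11 was also lower in KO with IFN-gamma, 0.63 against 1.13 FPKM, and Gbp10 was higher, 10.22 against 8.53 FPKM. Among the more abundant members, Gbp3 had a ratio of 1.46 (1.41 to 1.51) and Gbp5 of 1.33 (1.3 to 1.37). In the same WT and KO libraries the fibroblast and mesothelial markers summed to 69.79 and 47.28 FPKM and the macrophage markers to 7381.02 and 6033.79 FPKM, and their part in these ratios was not tested.

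The edgeR genotype term of PM, which sets 2 KO against 2 WT libraries, called 0 of the 9 genes, and 0.0332% of all genes tested. At an unadjusted p under 0.05 there were 3 of 9, against 13.9% of all genes. DESeq2 also called 0 of the 9, with 17 genes called higher and 19 lower of 12052 tested. Gbp8 had a log2 estimate of -1.47 (SE 0.19, adjusted p = 0.112, edgeR). With all 8 libraries in 1 fit its estimate was -1.48 (adjusted p = 0.051, edgeR). Without a filter on low counts edgeR called it lower (adjusted p = 0.0232), with 0.156% of genes called lower there. Gbp3 had an estimate of 0.56 (SE 0.11, adjusted p = 0.217, edgeR), and Gbp2b of -0.84 (SE 0.28, adjusted p = 0.335, edgeR). In untreated PM, Gbp8 had 2.58 (WT) and 2.80 counts (KO), a ratio with a counting interval of 0.132 to 7.38, and Gbp2b had no counts. The PM genotype estimates of Gbp8 and Gbp2b therefore rest almost wholly on the single pair of IFN-gamma libraries. In BMDM the Gbp8 estimate had the opposite sign, 1.19 (SE 0.49, adjusted p = 0.234, edgeR), on 5.33 to 25.92 counts a library. The test of the difference of the genotype effect between PM and BMDM, from the fit of all 8 libraries, gave -2.67 for Gbp8 (SE 0.53, adjusted p = 0.118, edgeR). It called 0 of 9 members and 0.127% of genes.

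In untreated PM, Gbp2 was the GBP gene with the largest KO over WT ratio on the log2(FPKM + 1) scale. Gbp2 had 13.00 FPKM (KO) and 6.53 FPKM (WT), a ratio of count shares of 1.99 (1.65 to 2.4), and 7 of the 9 genes had a log2 ratio above 0 and none below. The median log2 ratio was 0.23 over the 9 genes, against 0.04 over the 10670 genes that averaged 1 FPKM or more. On the log2(FPKM + 1) scale none was at least 2-fold higher, and 0.356% of all genes were, with Gbp2 just short of the limit at 0.89. The KO minus WT difference of its response to IFN-gamma was -0.88 on that scale, a value that uses the same untreated libraries. Gbp5, on 193.37 and 211.37 counts, had a ratio of count shares of 1.08 (0.885 to 1.32). Gbp3 had 1.48 (1.03 to 2.17) on 51.19 and 76.89 counts, and Gbp4 had 2.54 (0.906 to 7.77) on 5.90 and 15.19 counts. Across both cell types, a limma fit of the 4 KO minus WT differences called 0 of the 5 members measured in both, and 0.00993% of genes. Of the 5, 3 had an unadjusted p under 0.05, as had 8.39% of genes: Gbp2 with a mean difference of 0.59 (SE 0.17), Gbp3 with 0.49 (SE 0.13) and Gbp5 with 0.20 (SE 0.07).

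**Figure D5:**
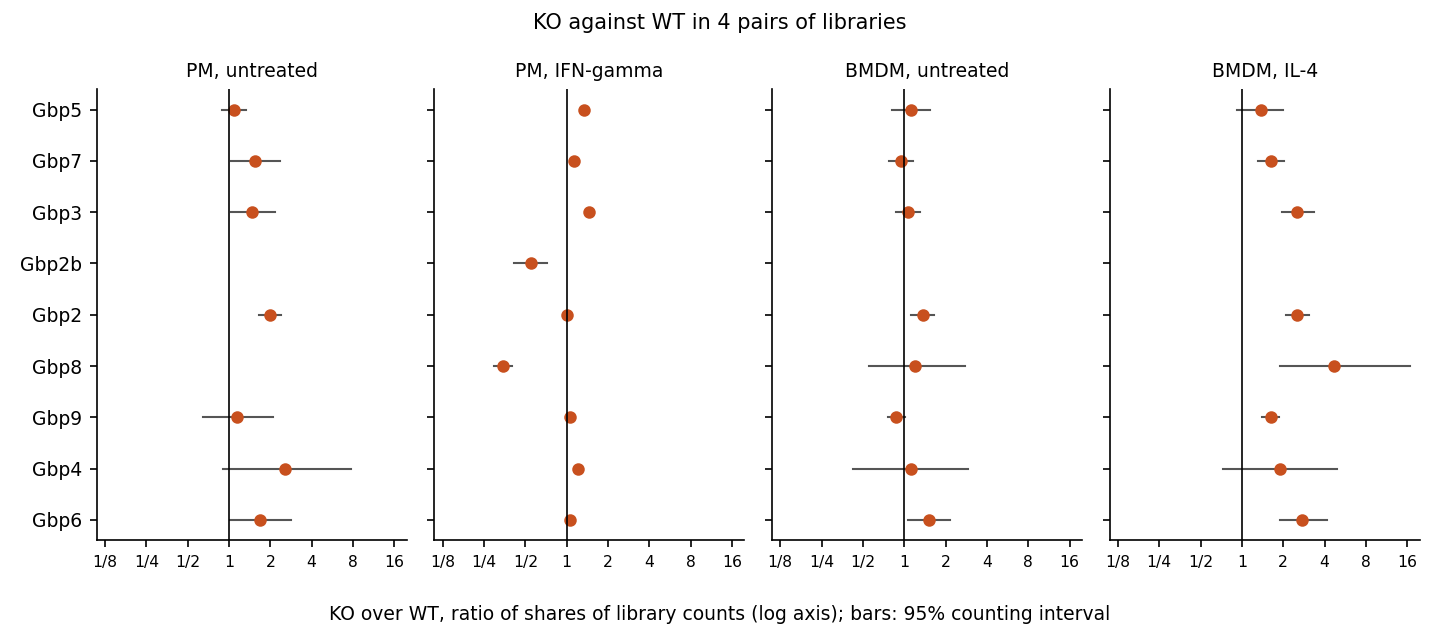
KO over WT ratio of each GBP gene's share of library counts in 4 pairs of libraries, on a log axis, with 95% counting intervals, for genes with more than 3 counts in at least 1 library and above 0 in both. With IFN-gamma in PM, Gbp8 is at 0.344 and Gbp2b at 0.546 while the others lie between 1.01 and 1.46, and with IL-4 in BMDM all 8 genes shown lie above 1.

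With IL-4, the KO BMDM library held more GBP RNA than the WT BMDM library, and without it the family sums were close. The 9 genes summed to 16.20 (WT) and 17.38 FPKM (KO) in untreated cells and to 10.98 and 22.27 FPKM with IL-4. As shares of all counts these were 0.00546% (Wilson 95% interval 0.00516% to 0.00579%) and 0.00571% (0.0054% to 0.00604%) untreated, with intervals that overlap. With IL-4 the shares were 0.00375% (0.0035% to 0.00403%) and 0.00729% (0.00694% to 0.00767%), with intervals that do not. These intervals cover counting error only and not the spread between cultures or animals. Gbp2 was at 3.32 (untreated) and 2.79 FPKM (IL-4) in WT and at 4.51 and 7.06 FPKM (KO). Gbp6 was at 0.61 and 0.41 FPKM (WT) and at 0.92 and 1.11 FPKM (KO). In both genes, and in Gbp4 and Gbp8, the KO libraries lay above the WT libraries with no overlap, 4 of 8 members tested against 12.6% of all genes tested. For Gbp4 the untreated KO and WT levels were 0.11 and 0.10 FPKM, on 10.85 and 9.81 counts. For Gbp8 they were 0.30 and 0.25 FPKM, on 15.89 and 13.27 counts. The counting intervals of these ratios, 0.424 to 2.89 and 0.555 to 2.78, hold 1, so that both separations are poorly determined. The edgeR genotype term called Gbp2 (log2 estimate 0.90, SE 0.18, adjusted p = 0.0176) and Gbp6 (1.01, SE 0.22, adjusted p = 0.0328) higher in KO. These are 2 of 8 members tested, against 1.51% of genes called higher. All 8 estimates were above 0, from 0.26 for Gbp9 to 1.19 for Gbp8, with a median of 0.56 against 0.00 over all genes tested.

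Both calls were lost with DESeq2 (adjusted p = 0.117 for Gbp2 and 0.724 for Gbp6), which called 0.318% of genes higher, and in the edgeR fit of all 8 libraries (0.276 and 0.141), which called 0.157%. In limma on log2(FPKM + 1), Gbp2 had an adjusted p of 0.12 and 0.578% of genes were called higher; Gbp6 was under the 1 FPKM limit there. Without the filter on low counts edgeR also called Gbp3 (adjusted p = 0.000661), where 3.03% of genes were called higher. The libraries of 1 genotype may share an animal, so that these p-values may measure technical spread in part. In the transcript searched, 2604 bases against a counted length of 4329, Gbp6 shares 70.1% of its 50-base stretches with other listed genes. The share with Gbp10 is 62.3%, and Gbp10 was at 0.03 FPKM or less in BMDM. The fibroblast marker sum given above was lower in the same KO libraries, and its part in these differences was not tested.

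In the IL-4 libraries the KO over WT ratio of count shares was 2.53 (2.08 to 3.09) for Gbp2, 2.54 (1.95 to 3.36) for Gbp3, 2.75 (1.88 to 4.17) for Gbp6, 1.64 (1.32 to 2.03) for Gbp7 and 1.62 (1.41 to 1.87) for Gbp9. For Gbp8 it was 4.71 (1.9 to 16.8) on 25.92 and 5.33 counts. In untreated BMDM the same ratios were 1.36 (1.11 to 1.66) for Gbp2, 1.07 (0.874 to 1.3) for Gbp3, 1.51 (1.07 to 2.16) for Gbp6, 0.943 (0.773 to 1.15) for Gbp7 and 0.874 (0.757 to 1.01) for Gbp9. Of the 5 members that averaged 1 FPKM or more, Gbp2 alone was at least 2-fold higher in KO with IL-4, where 0.385% of genes were, and none in untreated cells, where 0.156% were. Gbp3 missed the limit at a log2 ratio of 0.94 and passed it with a pseudocount of 0.1 or as CPM. The median over the 5 was 0.59 with IL-4 and 0.07 without, against 0.01 and -0.00 over all 10906 genes.

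In the main edgeR fit, IL-4 itself changed no GBP gene past the threshold. The edgeR IL-4 term called 0 of 8 members, against 21.2% of all genes. It had 1 member (Gbp3) at an unadjusted p under 0.05, against 33.6% of genes. DESeq2 also called 0 of the 8, but it called fewer genes, 674 higher and 417 lower of 12879 tested. Without the filter on low counts edgeR called Gbp3 lower (adjusted p = 0.000956), and 8.42% of genes. The additive term averages over both genotypes. Their log2 ratios with IL-4 were below 0 in both for Gbp3 and Gbp5. The ratios had opposite signs for Gbp2, Gbp4, Gbp6, Gbp7, Gbp8 and Gbp9. In WT, 8 of the 9 genes had a log2 ratio below 0 with IL-4 and Gbp2b had no counts, and in KO 6 of 9 had one above 0. The median over the 10906 genes that averaged 1 FPKM or more was -0.04 in WT and -0.01 in KO. Gbp3 in WT went from 3.65 to 1.43 FPKM (ratio of count shares 0.394, 0.298 to 0.512) and in KO from 3.89 to 3.65 FPKM (0.941, 0.773 to 1.15). Gbp9 in WT went from 5.36 to 4.19 FPKM (0.781, 0.672 to 0.906) and in KO from 4.68 to 6.79 FPKM (1.45, 1.26 to 1.66). On the log2(FPKM + 1) scale, none of the 5 members over 1 FPKM was 2-fold lower in WT, where 0.449% of genes were. Gbp3 was just short of the limit there at -0.94, though its ratio of count shares was past 2-fold. In KO none of the 5 was 2-fold higher on that scale, where 1.27% of genes were. With 1 library for each of the 4 conditions, the difference between the genotypes' responses was not tested.

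Other interferon-inducible genes were read beside the family. The type I interferon list of 28 genes, which includes Ifit2, Mx1 and Oas1a, had a median IL-4 response of -0.62 in WT and 0.34 in KO, and its KO over WT median with IL-4 was 1.01, with 28 of 28 above 0. For the immunity-related GTPases (IRGs), the partners of GBPs on pathogen vacuoles, the KO over WT median with IL-4 was 0.73 over 10 genes, all above 0. In IFN-gamma-treated PM the same comparison gave 2.10 for the type I list, 0.30 for 14 IRGs and 0.08 for the 9 GBPs, against -0.02 over all genes. The GBP median in PM lay nearer to that of all genes than to either list. Whether the lists differ was not tested.

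The genes that work with GBPs were counted in the IFN-gamma term of PM. Against 17.2% of all genes, 13 of the 14 IRGs tested rose. They were led by Tgtp1 (0.00 to 55.00 FPKM (WT) and 0.00 to 142.55 in KO), Iigp1 (0.22 to 514.30 and 0.95 to 479.11), Tgtp2 (0.38 to 292.18 and 1.23 to 330.66) and Ifi47 (3.14 to 402.35 and 3.37 to 481.56). Tgtp1 and Tgtp2 are near-identical copies, so that the split of reads between them is uncertain. The median response of the list was 4.22 in WT and 4.53 in KO. Among the 5 other GBP superfamily genes tested, Gbp10, Gvin1, Gbp11 and Atl3 rose and Atl2 did not pass the test. Gbp10 went from 0.00 to 8.53 FPKM (WT) and from 0.00 to 10.22 FPKM (KO), and Gvin1, a very large inducible GTPase, from 0.89 to 68.99 FPKM (WT) and from 2.64 to 93.59 FPKM (KO). Gvin1 was also called higher in KO BMDM (log2 estimate 0.43, SE 0.10, adjusted p = 0.0426, edgeR).

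Of 14 genes of the IFN-gamma receptor and its signalling, 12 rose and none fell, where 17.2% of all genes rose and 14.9% fell. Irf1, which encodes a transcription factor of the GBP promoters, went from 12.73 to 580.16 FPKM (WT) and from 13.06 to 660.46 FPKM (KO). Batf2, an IFN-gamma-induced transcription factor, went from 2.02 to 147.98 FPKM and from 1.55 to 205.99 FPKM. The feedback inhibitors Socs1 (2.15 to 90.12 and 2.58 to 99.79 FPKM) and Socs3 (2.99 to 56.61 and 1.96 to 49.70 FPKM) rose as well. The receptor chains Ifngr1 and Ifngr2 did not pass the test. In BMDM, Socs1 was called higher with IL-4, from 1.22 to 20.86 FPKM (WT) and from 1.54 to 19.72 FPKM (KO), while no GBP was.

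Of 12 inflammasome genes, the machinery that reads ligands freed by GBPs, 6 rose and 4 fell, where 17.2% of all genes rose and 14.9% fell. Nlrp3, a sensor of membrane damage, went from 1.30 to 14.76 FPKM (WT) and from 0.77 to 16.90 FPKM (KO). Casp4, which encodes caspase-11, the sensor of cytosolic lipopolysaccharide, went from 10.54 to 55.71 FPKM and from 10.42 to 91.66 FPKM. Mefv, the gene of pyrin, went from 0.18 to 2.16 FPKM and from 0.09 to 1.20 FPKM. Naip1, a sensor of bacterial secretion needles, fell from 1.68 to 0.53 FPKM and from 1.79 to 0.24 FPKM. Gsdmd, the pore-forming gasdermin D, was the 1 gene of this list called in the BMDM genotype term (log2 estimate 0.22, SE 0.05, adjusted p = 0.0455, edgeR).

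The 5 protein-coding genes with a pattern most like the mean GBP profile over the 8 libraries were searched among 4956 genes of at least 10 FPKM in both IFN-gamma libraries. They were Iigp1 (Pearson r = 0.999), Tlr12 (0.998), Jdp2 (0.998), Lap3 (0.998) and Hcar2 (0.997). The measure mostly reads the step between the 2 IFN-gamma libraries and the other 6, which these 8 points share. Tlr12, a receptor for profilin of protozoa, was at 15.69 and 14.38 FPKM with IFN-gamma and at 0.06 FPKM or less in the other 6 libraries. Lap3, an aminopeptidase, was at 87.19 and 85.46 FPKM with IFN-gamma and at 9.82 to 11.53 FPKM elsewhere.

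Close relatedness limits how well single members can be counted. Among 50-base stretches of the member transcripts, the share also found in another listed gene was 70.1% for Gbp6, 21.2% for Gbp8, 12.1% for Gbp4 and 7.5% for Gbp9, all on chromosome 5. It was 4.9% for Gbp3, 2.3% for Gbp7, 2.1% for Gbp2, 1.8% for Gbp2b and 0.9% for Gbp5. Over stretches of 100 bases it was 46.7% for Gbp6, 3.8% for Gbp8 and 0.0% for Gbp2, Gbp2b and Gbp5. The transcript searched differed most from the counted length for Gbp6, 2604 against 4329 bases, and for Gbp9, 4381 against 3633. Their shares may therefore not hold for the counted sequence. With that limit, the estimates of Gbp6 and Gbp10 are to be read together. Those of Gbp2 and Gbp2b rest almost wholly on sequence of their own. The sources used here give no read length.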

How the data were processed

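RNA sequencing libraries of 8 macrophage cultures, 1 per group, were analysed from 1 table per library. Per the submitters' processing notes, Bowtie2 2.2.5, RSEM and mm10 were used; neither the RSEM version nor the order of steps is given in the sources used here. The deposited expected counts (estimated counts) were whole within 0.005 for 70.1% to 77.8% of genes and were rounded for count tests. The FPKM values deposited by the authors carry no scaling between libraries. The transcript length column of the deposited tables, another quantity, was copied and used to choose the transcript searched for shared stretches. Genes absent from a library's table were taken as 0 there.

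Additive fits (genotype + stimulus) of the 4 libraries of a cell type, with 1 residual degree of freedom, used edgeR 4.0.16 (quasi-likelihood, TMM, filterByExpr) in R 4.3.3, with Benjamini-Hochberg adjustment over all genes tested. SEs are the estimate divided by the square root of F. DESeq2 1.42.0, RLE scaling, no filter, limma 3.58.1 on log2(FPKM + 1) and a fit of all 8 libraries were alternatives. Limma also tested the 4 KO minus WT differences. Pairs of libraries were compared as log2 ratios of FPKM after adding 1 as pseudocount, for genes averaging 1 FPKM or more in the cell type, with 2-fold as the limit and no test. Counting intervals are 95% Clopper-Pearson intervals of the ratio of count shares, and shares of a library have Wilson intervals. The edgeR script was tested on simulated data. Other steps used Python 3.11.15, pandas 2.3.3, scipy 1.17.1, numpy 2.4.6 and matplotlib 3.10.9. All 9 members are named, with the 5 genes most like their mean profile and up to 4 genes with the largest called estimates of each pathway list; Ifngr1, Ifngr2, Atl2, Gsdmd and the examples of the type I list were named beside this rule. Members and lists were chosen with earlier results of these data known. Protein sequences and promoter windows of the chromosome 5 members were not used here.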

Additional observations from a re-analysis of the deposited data

Results flagged for a closer look

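In BMDM, 3 of the 5 GBP genes that averaged 1 FPKM or more had a response to IL-4 of opposite sign in the genotypes, below 0 in the WT pair and above 0 in the KO pair, on the log2(FPKM + 1) scale. Gbp2 was at -0.19 in WT and 0.55 in KO, a difference of 0.74. Gbp9 was at -0.29 and 0.46, a difference of 0.75, and Gbp7 at -0.33 and 0.15, a difference of 0.48. Below that level, Gbp4 (-0.03 and 0.05), Gbp6 (-0.19 and 0.14) and Gbp8 (-0.17 and 0.21) had the same signs. Each sign rests on 1 pair of libraries, and the difference was not tested. The same combination of signs was found in 15% of the 10906 genes that averaged 1 FPKM or more. The counting interval of the ratio of count shares excluded 1 in both genotypes for Gbp9 (0.672 to 0.906 in WT and 1.26 to 1.66 in KO). For Gbp2 it held 1 in WT (0.668 to 1.05), and for Gbp7 it held 1 in KO (0.975 to 1.44).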

How the results depend on the processing

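No paired analysis was possible because no group has a second replicate number to pair; the limma fit of KO minus WT differences pairs libraries of the same condition. Leaving out a library leaves no residual degree of freedom in the additive fits. The IFN-gamma calls of 8 members held under the 5 alternatives, and that of Gbp2b under 4. Members called higher in the BMDM genotype term came to 0 with DESeq2, 0 with limma and 0 with all 8 libraries. Without the filter on low counts, 1 member (Gbp8) was called lower in the PM genotype term and 1 (Gbp3, 8.42% of genes called lower) in the IL-4 term. The IL-4 estimate of Gbp8 was 0.10 with edgeR and -0.21 with DESeq2. With a pseudocount of 0.1 or TMM-scaled CPM + 1, Gbp3 was past 2-fold lower with IL-4 in WT. It was also past 2-fold for the KO minus WT response, and Gbp2 and Gbp3 were for KO over WT with IL-4. The share of all genes past 2-fold at these settings is not given here, so that these passes have no background beside them. By summed counts, Gbp2 made up 33.8% (WT) and 44.3% (KO) of the family in untreated PM, 71.6% and 68% with IFN-gamma, 15.1% and 19.5% in untreated BMDM, and 18.4% and 24% with IL-4. Over all genes, the BMDM genotype term called 195 higher and 474 lower with edgeR, 41 and 113 with DESeq2, 63 and 182 with limma, 21 and 126 with all 8 libraries and 527 and 726 without the filter. The PM genotype term called 3 and 1, against 17 and 19 with DESeq2, 12 and 5 with RLE, 26 and 51 with all 8 libraries, 26 and 26 without the filter and 0 and 0 with limma. The IFN-gamma term called 2077 higher and 1796 lower, against 1272 and 877 with DESeq2, and the IL-4 term 1542 and 1189, against 674 and 417 with DESeq2 and 617 and 412 with all 8 libraries. The cause of these differences was not tested. Median scaling shifted the median KO response to IFN-gamma (main minus scaled, -0.13) and turned the sign of 1 member's value, the KO minus WT response of Gbp9 to IFN-gamma, from -0.01 to 0.04. Untreated levels of Gbp4, Gbp8 and Gbp2b in PM are limited by depth.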

Other observations

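GBPs reach membranes with the help of a lipid tail on some members and of the autophagy conjugation machinery, and neither group moved as a whole with IFN-gamma in PM. Of 12 autophagy genes tested in the edgeR fit, 2 rose and 4 fell, against 17.2% and 14.9% of all genes, with a median log2 estimate of 0.01. Ube2l6 rose from 14.98 to 64.35 FPKM (WT) and from 15.66 to 99.07 FPKM (KO); it encodes the conjugating enzyme of ISG15 and is itself an interferon target. Atg16l1, which anchors the LC3 conjugation complex, rose from 9.52 to 17.51 FPKM and from 9.57 to 16.95 FPKM. Gabarapl1 fell from 139.26 to 72.24 FPKM and from 179.34 to 90.59 FPKM, and Atg12 from 43.17 to 25.15 FPKM and from 49.95 to 25.92 FPKM. Ube2l6 was also called higher in the BMDM genotype term (log2 estimate 0.56, SE 0.13, adjusted p = 0.0368, edgeR).

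Of 8 prenylation enzymes, 1 rose and 1 fell, near those shares of all genes, with a median log2 estimate of 0.16. Pggt1b, the catalytic chain of the transferase that adds the geranylgeranyl lipid, rose from 2.73 to 4.77 FPKM (WT) and from 2.96 to 5.01 FPKM (KO). Rabggta, a chain of the transferase that modifies Rab proteins, fell from 16.08 to 9.53 FPKM and from 15.78 to 9.98 FPKM. Of the 28 type I interferon genes, 27 rose with IFN-gamma, against 17.2% of all genes.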
